A study of Camponotus fellah with 299 samples.

Results

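The 60 gene models described here are those whose level in the ant brain leaned opposite ways with social maturity and with age. Each lean was taken with the other trait held. The genes were chosen among 14664 gene models of the carpenter ant Camponotus fellah. Of these, 8183 had a median level of at least 5 CPM (reads per 1e+06 counted reads of the same library). For each gene and colony, a partial Spearman rho was taken between CPM and maturity with age held, and between CPM and age with maturity held, and each was averaged over 3 colonies. Opposite signs with both averages at 0.1 or more in size were found in 644 genes, and the 60 whose weaker average was largest were kept. In 21 of them the partial rho was positive with maturity and negative with age. They are called the maturity-up genes below. In the other 39 it was negative with maturity and positive with age, and these are called the maturity-down genes. The names refer to the partial rhos and need not hold for plain levels. The values that chose the members are given as a description, with no test.

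In ant colonies, young workers commonly stay near the brood and the queen, and older workers move towards the nest entrance and forage, a division of labour known as age polyethism. Age and social role are therefore tied to each other, but a worker can move to the foraging side early or remain a nurse late. Carpenter ants are also known for workers of unequal body size within a colony, and larger and smaller workers can take up different tasks.

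Brain RNA of 299 ants of colonies 2, 3 and 4 was sequenced ant by ant, with no treatment, strain or genotype given in the labels. For each ant the labels hold a maturity value from 0 to 1, the age (months), body size measures, a nurse-forage ratio and tallies of what it was seen doing. In 10 ants these were missing, so 289 ants were used, 87 from colony 2, 98 from colony 3 and the rest from colony 4. Their ages ran from 1 to 33 months in colony 2, from 1 to 45 in colony 3 and from 1 to 46 in colony 4. The labels do not define maturity, which was read as the position in the social network, and the deposited value was turned round in colony 4, where it ran against age and brood care in the opposite sense to the other colonies. In this orientation a low value goes with brood care and a high value with foraging, and it rose with age in each colony (Spearman rho 0.73 in colony 2, 0.79 in colony 3 and 0.71 in colony 4). Colony was a term in every model fitted over several colonies, except where runs of ants stood in its place. The partial rhos were taken within colonies, and fits to a single colony had no such term. From the labels, a colony and the batch in which it was handled cannot be told apart. A p-value here measures only how ants varied within these 3 colonies. Library totals ran from 19.8 M to 73.2 M counted reads (M, 1e+06), with a median of 38.3 M. The partial rho between library total and maturity lay between 0.05 and 0.11 in the 3 colonies, and that between library total and age between -0.11 and -0.02.

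To show levels, 4 cells of ants were set by label: ants below 0.25 in maturity (the low end) and above 0.75 (the high end), each split at 12 months of age. Of 162 low-end ants 57 were 12 months or older and the others younger; the high end held 9 ants under 12 months and 78 older ones. The 9 young high-end ants came from colony 2 (6 ants) and colony 4 (3 ants), with none in colony 3. The median age was 6 months in young and 14 in older low-end ants, and 8 in young and 28 in older high-end ants. The older cells were thus not matched for age. Their low-end and high-end medians were 14 and 23 months in colony 2, 14 and 31 in colony 3, and 15 and 30 in colony 4. The median brood care tally was 11 in the young and 4 in the older low-end ants, and 0 in both high-end cells. The identifiers are not paired with gene names in the files, so the members are given by identifier, with no function or sequence, and the brain label was not checked against marker genes.

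The median level of the maturity-up genes ran from 6.59 to 533 CPM and that of the maturity-down genes from 8.74 to 1372 CPM. In every member the most highly expressing ant was between 1.18 and 2.28 times the median ant. From the lowest to the highest ant the levels spanned 1.37 to 5.71 times in the maturity-up genes (median 2.03) and 1.58 to 7.60 times in the maturity-down genes (median 2.81). The lowest count of any member in any ant was 76 reads. Together the 60 genes took 0.828% to 1.21% of a library's counts, with a median of 0.994%. They lay on 44 contigs, with at most 4 on one contig, and only evm.model.ctg12.76 and evm.model.ctg12.77 carried consecutive numbers on a contig; these were seen after the values.

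The maturity-up genes had partial rhos with maturity of 0.19 to 0.46 (median 0.23) and with age of -0.36 to -0.19 (median -0.21). For the maturity-down genes the ranges were -0.54 to -0.19 (median -0.26) and 0.19 to 0.36 (median 0.24). The last genes inside the limit had a weaker rho of 0.18824 and 0.18823 and the first outside had 0.18804 and 0.18699, so the limit of 60 genes falls within a continuous run of values. Without holding the other label, the median plain rhos were smaller, 0.09 with maturity and -0.07 with age for the maturity-up genes and -0.13 and 0.04 for the maturity-down genes. Single members ranged widely here, with plain rhos on maturity from -0.13 to 0.43 in the maturity-up and from -0.58 to 0.09 in the maturity-down genes. On maturity the plain rho had the other sign in 4 of the 21 maturity-up and 5 of the 39 maturity-down genes. On age it did in 5 maturity-up and 14 maturity-down genes. The chosen signs of both partial rhos were present in all 3 colonies in 19 of the 21 maturity-up and 34 of the 39 maturity-down genes. One and the same opposing pattern in all colonies was found in 744 of the 8183 genes (9.09%), and since the rule averaged over these colonies nothing is read from the members' excess.

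**Figure D1:**
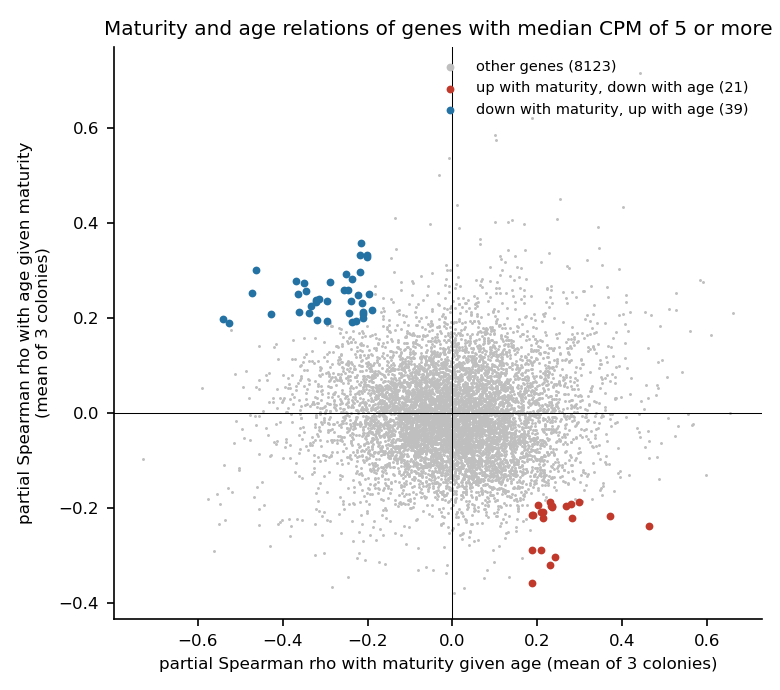
Each point is 1 of 8183 genes, with the mean over 3 colonies of its partial Spearman rho with oriented maturity given age on the x axis and with age given maturity on the y axis. The 39 maturity-down genes (blue) lie at the upper left, the 21 maturity-up genes (red) at the lower right, and both sit at the edge of a continuous cloud of other genes (grey).

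The leading maturity-down gene, evm.model.ctg35.32, shows the pattern at the level of single ants. Young low-end ants ranged from 437 to 726 CPM with a median of 628, and older low-end ants from 572 to 759 CPM with a median of 661. Young high-end ants ranged from 523 to 580 CPM with a median of 563, and older high-end ants from 477 to 701 CPM with a median of 573. Pooled over colonies, older low-end ants were highest and young high-end ants lowest by median; the highest young high-end ant stood just above the lowest older low-end ant, and all other cells overlapped broadly. Older low-end ants had the highest median in each colony (656, 659 and 666 CPM in colonies 2, 3 and 4). In colony 4 young and older high-end ants had medians of 569 and 566 CPM, and in colony 2 of 554 and 565 CPM. Among low-end ants alone its rho with age was 0.33, 0.36 and 0.38 in colonies 2, 3 and 4, and among high-end ants alone it was 0.23, -0.22 and 0.18.

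The other leading maturity-down gene, evm.model.ctg12.294, was expressed at about 12 CPM and its cells overlapped over most of their range. Its medians were 12.1 CPM (7.11 to 18.6) in young and 11.9 CPM (7.29 to 21.9) in older low-end ants. They were 9.72 CPM (7.77 to 18.1) in young and 11.1 CPM (6.36 to 18.1) in older high-end ants. In colony 4 the older ants had a median of 9.27 CPM in 21 older high-end ants beside 11.8 CPM in 30 older low-end ants; in colony 3 these medians were 11.3 and 12.3 CPM. In colony 2 they lay the other way, at 11.6 CPM in 33 older high-end ants and 11.1 CPM in only 3 older low-end ants.

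Of the maturity-up genes, evm.model.ctg59.134 was highest in ants of colony 4. Its medians were 208 CPM (167 to 270) in young low-end, 198 CPM (166 to 252) in older low-end, 224 CPM (168 to 287) in young high-end and 203 CPM (128.1 to 279) in older high-end ants. In colony 4 the 3 young high-end ants had 230, 279 and 287 CPM, beside a median of 215 CPM in 39 young low-end ants. In colony 2 the 6 young high-end ants had a median of 202 CPM, beside 206 CPM in 35 young low-end ants.

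The second maturity-up gene, evm.model.ctg43.48, differed more between colonies than between cells. In colony 2 its median was 378 CPM in young low-end and 409 CPM in young high-end ants; in colony 4 the same medians were lower, at 285 and 310 CPM. In colony 3 older low-end ants had a median of 365 CPM (335 to 402). The older high-end ants of that colony had a median of 389 CPM (360 to 623), and the ant at 623 CPM stood far above the rest.

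**Figure D2:**
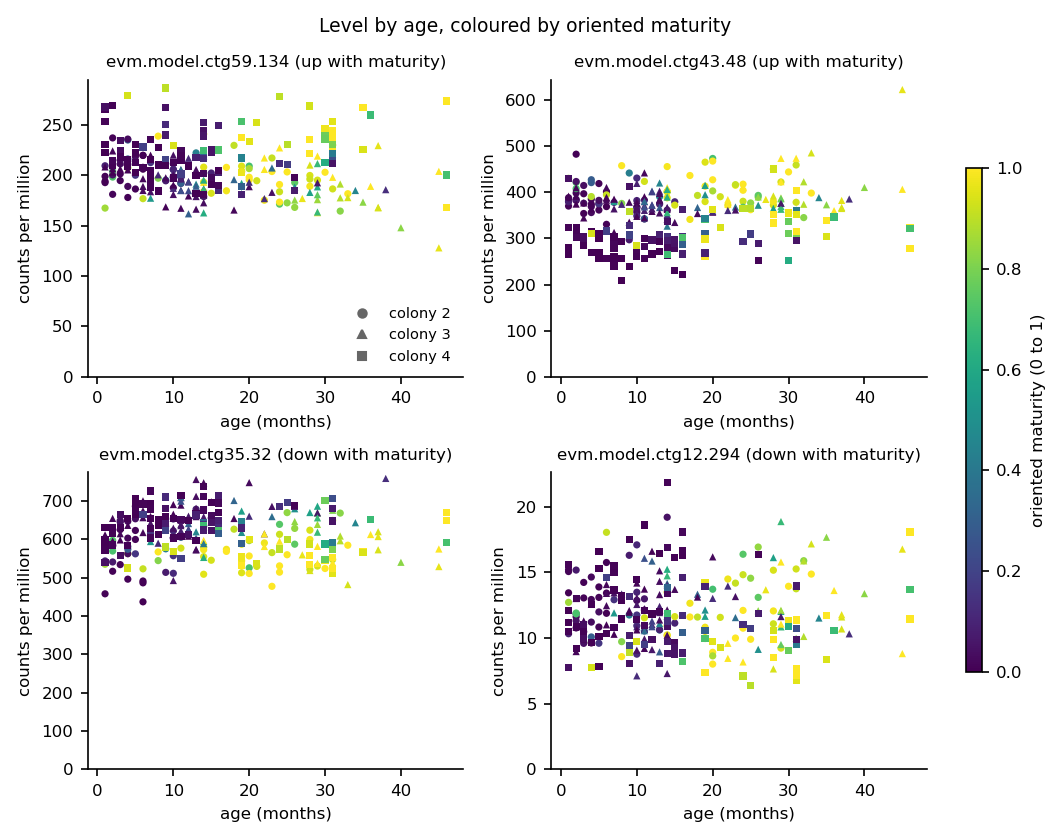
CPM of the 4 leading genes (y axis, from 0) in each of 289 ants by age in months (x axis), coloured by oriented maturity and with a marker for each colony. In evm.model.ctg35.32 the low-maturity ants (dark) mostly lie above the high-maturity ants (yellow) of like age; in evm.model.ctg43.48 colony 4 (squares) lies below the other colonies.

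In a model of counts holding colony, maturity and age together (edgeR), all 60 members kept opposite slopes, as their choice on the same labels largely fixes. Slopes are log2 changes, over the whole range of maturity (0 to 1) and over 12 months of age. The median slopes were 0.09 on maturity and -0.04 on age for the maturity-up genes, and -0.17 and 0.06 for the maturity-down genes. For evm.model.ctg35.32 the slopes were -0.22 ± 0.02 (SE) and 0.05 ± 0.01, and for evm.model.ctg12.294 -0.34 ± 0.06 and 0.11 ± 0.03. For evm.model.ctg59.134 they were 0.13 ± 0.03 and -0.07 ± 0.01, and for evm.model.ctg43.48 0.18 ± 0.03 and -0.01 ± 0.01. Of the members, 46 were called for maturity (18.6% of 10457 genes tested), 28 for age (7.97%) and 21 for both with opposite signs (0.421%, 44 genes); the rule used these contrasts and nothing is read from the counts.

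The same sets were followed with age inside each end of maturity, without holding maturity further; these ants were also used by the rule. In the 87 high-end ants, 20 of the 21 maturity-up genes had a negative mean rho with age (median -0.32), and in the 162 low-end ants 18 of 21 did, with a median of only -0.05. In the maturity-down genes the mean rho with age was positive in 35 of 39 at the low end (median 0.17) and in 36 of 39 at the high end (median 0.19). Over all 8183 genes the median was -0.01 at either end. Of these genes 3874 were positive and 4309 negative at the low end, and 3912 positive and 4271 negative at the high end. By colony, the median for the maturity-up genes was -0.11, -0.11 and -0.03 at the low end in colonies 2, 3 and 4, and -0.31, -0.39 and -0.26 at the high end. For the maturity-down genes it was 0.20, 0.20 and 0.10 at the low end and 0.25, 0.08 and 0.25 at the high end, so which end had the larger lean differed between colonies. In colony 4 the maturity-up genes at the low end split into 12 negative and 9 positive (4461 and 3722 over all genes). In colony 3 the maturity-down genes at the high end split into 23 positive and 16 negative (3796 and 4386 over all genes). The difference between ends was not tested here, but the product of maturity and age, given below, was.

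A level for each set in each ant was taken as the mean over its genes of the within-colony z value of log2(CPM + 1). The rule chose these genes on maturity and age in the same ants. The order of the cells is thus largely fixed by the choice and is given as a description. The 9 young high-end ants stood farthest out in both sets, with means of 0.64 ± 0.63 (SD) for the maturity-up and -0.55 ± 0.60 for the maturity-down genes. The 57 older low-end ants had means of -0.12 ± 0.57 and 0.26 ± 0.45; in the maturity-up genes the mean was -0.54 in the 3 such ants of colony 2, -0.04 in colony 3 and -0.14 in colony 4. The young low-end ants had -0.02 ± 0.52 and 0.01 ± 0.49, and the 78 older high-end ants 0.02 ± 0.69 and -0.15 ± 0.57. Pooled over colonies, young low-end and older high-end ants, the usual pairing of age and role, lay close together in both sets. In colony 4 alone the maturity-down genes had means of 0.06 ± 0.60 in young low-end and -0.36 ± 0.54 in older high-end ants. The spread within each cell was as wide as the distance between most cells.

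**Figure D3:**
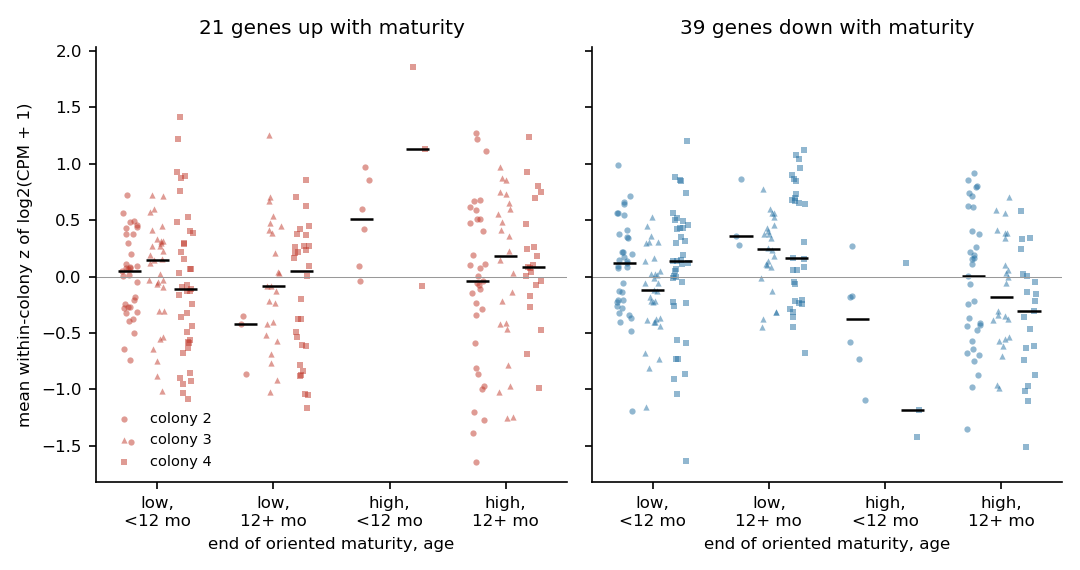
Mean within-colony z value of log2(CPM + 1) over the 21 maturity-up genes (left) and the 39 maturity-down genes (right) in each ant at the low or high end of oriented maturity, under 12 months or 12 months and older; colonies are set side by side with their own markers and black bars mark colony medians. The high-end ants under 12 months lie highest on the left and lowest on the right, and colony 3 has no such ant. Pooled over colonies all cells overlap. In colony 2 the 6 high-end ants under 12 months and the 3 older low-end ants do not overlap in either set.

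Body length, which the rule did not use, went with most members. With colony, maturity and age in the model, 48 of the 60 members were called for body length (edgeR quasi-likelihood test, Benjamini-Hochberg adjusted p below 0.05, n = 289 ants), beside 29.5% of all 10457 genes. In longer ants 19 of the 21 maturity-up genes were lower and 29 of the 39 maturity-down genes were higher, and no called member went the other way. Over all genes 14.2% were called lower and 15.2% higher. The median slope per unit of body length (no unit in the labels) was -0.03 log2 in the maturity-up and 0.06 log2 in the maturity-down genes. Of the 12 members that were not called, 6 had an unadjusted p below 0.05.

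The member with the smallest adjusted p among those that rose with body length was evm.model.ctg81.9, at 0.08 ± 0.01 log2 per unit (adjusted p = 5.59e-13). In colony 2 its level ranged from 111.4 to 182 CPM (median 138.4) in the 22 shortest ants and from 132.3 to 191 CPM (median 161) in the 22 longest. The medians of the shortest and longest ants were 135.96 and 157 CPM in colony 3 (25 ants each) and 133.7 and 154 CPM in colony 4 (26 ants each), so the longer ants were higher in each colony while their ranges overlapped. These values are not matched for the other labels: the shortest and longest ants had a median maturity of 0.908 and 0.520 in colony 2, 0.399 and 0.0424 in colony 3, and 0.0669 and 0.153 in colony 4. Among those that fell, evm.model.ctg8.140 had -0.15 ± 0.02 log2 per unit (adjusted p = 2.04e-10). Its medians in the same shortest and longest ants were 9.95 and 6.40 CPM in colony 2, 9.24 and 6.95 CPM in colony 3, and 10.3 and 8.07 CPM in colony 4. All 4 leading genes named above were also called, with slopes of 0.10 ± 0.02 for evm.model.ctg12.294, 0.02 ± 0.01 for evm.model.ctg35.32, -0.02 ± 0.01 for evm.model.ctg59.134 and -0.03 ± 0.01 for evm.model.ctg43.48.

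In each colony taken alone the members again went with body length. In colony 2 34 members were called (17.9% of all genes), in colony 3 24 (3.61%) and in colony 4 35 (15.1%), each of them lower in the maturity-up and higher in the maturity-down genes. The level of the maturity-up set had a rho with body length of -0.62, -0.37 and -0.36 in colonies 2, 3 and 4, and that of the maturity-down set one of 0.53, 0.52 and 0.47; these are descriptions. With head width in place of body length, and without 1 ant listed at a width of 0, 42 members were called (21.3%). These alternatives were added after the data were seen.

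Body length itself had the shape of the maturity-down genes. Its partial rho with maturity given age was -0.39, -0.26 and -0.16 in colonies 2, 3 and 4, and that with age given maturity was 0.35, 0.10 and 0.30. The median body length was 8.30 in the 9 young high-end ants (7.50 to 11.5) and 9.57 in the 57 older low-end ants (7.66 to 10.8), with 9.19 in young low-end and 9.00 in older high-end ants. The choice of members and the test of body length were therefore not independent. When body length was added to the model of maturity and age, all 60 members still had opposite slopes. The slopes on maturity became smaller in 57 of 60 members and those on age in 57, to a median of 0.885 and 0.788 of their size. Members called for both slopes with opposite signs went from 21 to 13, and over all genes from 44 to 30 (0.287%). When body length was also held in the partial rhos, 234 genes met the limits in place of 644, 52 of the 60 members among them, and 36 members were again among the first 60.

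**Figure D4:**
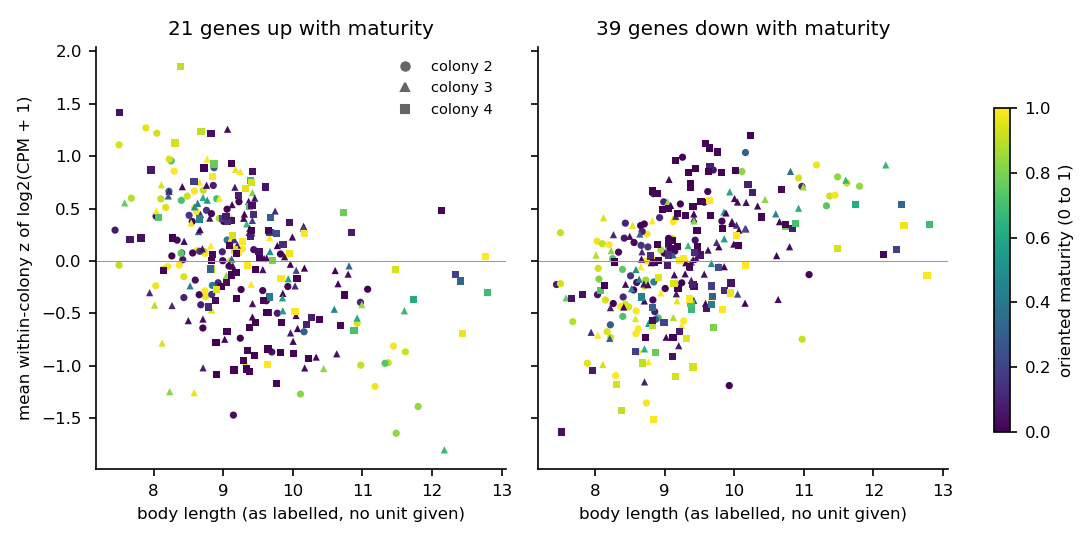
Mean within-colony z value of log2(CPM + 1) over the 21 maturity-up genes (left) and the 39 maturity-down genes (right) in each of 289 ants by body length as labelled (x axis, no unit given), coloured by oriented maturity, with a marker for each colony. Over the ants of each colony the level on the left falls and that on the right rises along body length. With maturity and age held, the partial rho was -0.55, -0.34 and -0.36 on the left in colonies 2, 3 and 4. On the right it was 0.43, 0.52 and 0.54. The relation among dark (low-maturity) or yellow (high-maturity) points alone was not measured.

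With all 3 colonies in the fit, queen attending gave the largest share of called members among the behaviours. With maturity and age in the model, 31 members were called for the tally of queen attending (13.8% of all genes), on the scale log2(tally + 1). In ants that attended the queen more, 14 maturity-up genes were lower and 17 maturity-down genes higher, and none went the other way; 6.96% of all genes were called lower and 6.87% higher. The member that rose with the smallest adjusted p was evm.model.ctg33.8, at 0.12 ± 0.02 log2 per doubling of the tally plus 1 (adjusted p = 1.10e-06). Among low-end ants of colony 4 its median was 135.1 CPM (68.5 to 261) in the 15 ants with a tally of 0 and 214 CPM (103.2 to 329) in the 54 others. In colony 2 these medians were 121.4 CPM in 6 ants and 162 CPM in 32, and in colony 3 they were 142 CPM in 10 ants and 158 CPM in 45. The member that fell with the smallest adjusted p was evm.model.ctg17.34, at -0.05 ± 0.01 (adjusted p = 9.01e-06), with medians of 152 and 123.9 CPM in the same ants of colony 4 and 133.4 and 129.5 CPM in colony 3. Neither gene was called for maturity in the joint model, with slopes of -0.06 ± 0.09 for evm.model.ctg33.8 and 0.05 ± 0.04 for evm.model.ctg17.34. In older ants, not matched for age, the high-end median of evm.model.ctg33.8 was 1.06, 1.30 and 1.20 times the low-end median in colonies 2, 3 and 4. For evm.model.ctg17.34 it was 1.00, 0.89 and 0.97 times, so these medians did not follow the set names. Without colony 2 queen attending gave 23 members and nest cleaning 31, and without colony 3 queen attending gave 38. Without colony 4 the edgeR test called 0 members and 8 of all genes (0.0765%), with 11 members at an unadjusted p below 0.05, and 21 of 21 maturity-up slopes were negative and 36 of 39 maturity-down slopes positive (20 and 38 over all colonies). With body length added, 17 members were called (8.30%). Queen attending itself had a partial rho with maturity given age of -0.58, -0.63 and -0.70 in colonies 2, 3 and 4, and with age given maturity of 0.02, 0.03 and 0.16. The rule used ranks of maturity, while this model held its value from 0 to 1. The choice of members and the test of queen attending were therefore not independent. The direction of the calls is thus not read apart from maturity.

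Nest cleaning gave calls in the opposite sense. Of the members, 19 were called (10.2% of all genes): 8 maturity-up genes were higher and 1 lower in ants that cleaned more, and 9 maturity-down genes were lower and 1 higher. Over all genes 5.18% were higher and 5.01% lower. The same pair led, with evm.model.ctg17.34 at 0.04 ± 0.01 (adjusted p = 0.000706) and evm.model.ctg33.8 at -0.09 ± 0.02 (adjusted p = 0.000922). With runs of 10 consecutively numbered ants as blocks 5 members were called, and with squared terms of maturity and age 11. Without colony 4 edgeR called 0 members and 0 genes in all, with 11 members at an unadjusted p below 0.05, and without colony 2 or colony 3 it called 31 and 6 members. Nest cleaning itself had a partial rho with maturity given age of 0.23, -0.22 and -0.15 in colonies 2, 3 and 4. With age given maturity it was 0.04, 0.14 and 0.08. Nest cleaning and queen attending were not fitted together, so their calls are not read as separate results.

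The remaining behaviours gave few calls. The nurse-forage ratio gave 8 members (3.96% of all genes, 1.75% higher and 2.21% lower), 7 of them maturity-down genes that were lower at a higher ratio, led by evm.model.ctg35.32 at -0.19 ± 0.03 log2 from 0 to 1 (adjusted p = 5.07e-07). The only maturity-up gene called was evm.model.ctg1.188, higher by 0.14 ± 0.04 (adjusted p = 0.00727). Without colony 2, 3 or 4 the ratio gave 1, 3 and 12 members. Brood care gave 6 (6.15%, with 2.91% higher and 3.24% lower), 3 maturity-up genes lower and 3 maturity-down genes higher; it gave between 0 and 14 members when a colony was left out, and 1 with the runs of ants as blocks. Food exchange between ants on the foraging side (trophallaxis) gave 3 (2.83%, with 1.74% higher and 1.09% lower), all maturity-down genes that were lower, with evm.model.ctg35.32 at -0.04 ± 0.01 (adjusted p = 0.00443); without colony 3 it gave 0 and without colony 4 it gave 5. For guarding, edgeR called 0 members (0.583% of all genes, 0.277% higher and 0.306% lower), with 5 at an unadjusted p below 0.05, and limma-voom also called 0. The partial rho with maturity given age was 0.67, 0.49 and 0.56 for the ratio in colonies 2, 3 and 4. It was -0.75, -0.67 and -0.75 for brood care and 0.46, 0.47 and 0.39 for trophallaxis. These tests too were not independent of the choice of members.

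**Figure D5:**
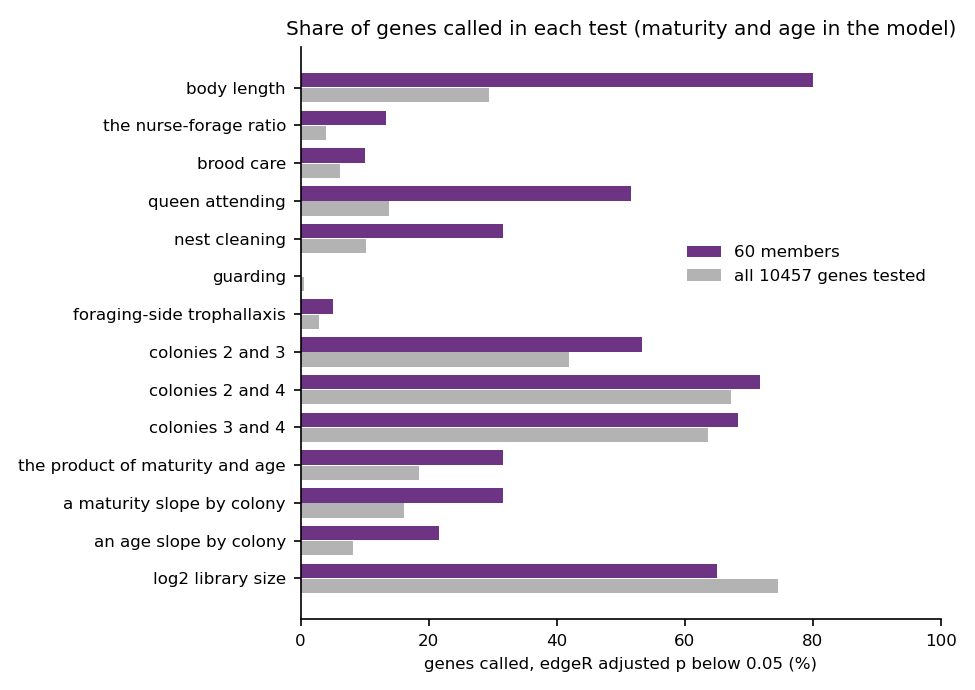
Percent of the 60 members (purple) and of all 10457 genes tested (grey) called in each test at an edgeR adjusted p below 0.05 (x axis, from 0), with maturity and age in each model. The widest gap is at body length (80% of members, 29.5% of all genes), followed by queen attending; library size (65% and 74.5%) and guarding (0% and 0.583%) have a smaller share among the members.

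Levels between colonies, which the rule did not use, were called in the members at shares near those of all genes. Between colonies 2 and 3, 32 members were called (42% of all genes), between 2 and 4 43 (67.3%), and between 3 and 4 41 (63.6%). In 53 members at least 1 pair of colonies differed (81.7% of all genes) and in 18 all 3 pairs did (21.3%). The gene evm.model.ctg43.48 was lower in colony 4 than in colony 2 by -0.38 ± 0.02 log2 (adjusted p = 8.45e-42) and than in colony 3 by -0.37 ± 0.02 (adjusted p = 1.21e-48). In contrast evm.model.ctg59.134 was higher in colony 4 than in colony 3 by 0.18 ± 0.02 log2 (adjusted p = 2.25e-19). Of the maturity-up genes 13 were higher and 6 lower in colony 4 than in colony 2 (37.7% and 29.6% of all genes), and of the maturity-down genes 11 were higher and 13 lower. In colony 4 against colony 3, 22 members were higher and 19 lower (37.4% and 26.3%).

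Whether the slope on age changed with maturity was tested by the product of both labels. Of the members 19 were called (18.4% of all genes), among the maturity-down genes 10 with a negative and 3 with a positive product and among the maturity-up genes 3 each way; over all genes 9.58% were positive and 8.86% negative. For evm.model.ctg35.32 the product was -0.10 ± 0.02 log2 (adjusted p = 0.000217), a shallower slope on age at higher maturity, and for evm.model.ctg43.48 it was 0.08 ± 0.03 (adjusted p = 0.0482). Without colony 2 the count was 10 and without colony 4 it was 8. The slope on maturity differed between colonies in 19 members (16.1% of all genes) and the slope on age in 13 (8.12%) when each was freed alone; when both were freed, 5 and 0 members were called, with 6 at an unadjusted p below 0.05 for age.

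The rule was then applied to 2 colonies at a time and the 60 genes so chosen were read in the colony left out. In colony 2, 44 of 60 genes had both chosen signs, and in colony 4 45 did. In colony 3 there were 21. Over all genes the share with a positive slope on maturity and a negative one on age was 34.3% in colony 2, 30.2% in colony 3 and 27.8% in colony 4, and the share with the reverse was 31.1%, 33% and 22.9%. The genes chosen without colony 3 were thus found with both signs in colony 3 about as often as any gene. Slopes on maturity called in the chosen direction numbered 8 in colony 2, 2 in colony 3 and 16 in colony 4; between 2.17% and 6.19% of all genes were called in any one direction in these colonies. For age, edgeR called 1, 0 and 3 of the chosen genes in the chosen direction (1.36%, 0.975% and 4.32% of all genes in either direction), with 20, 8 and 10 at an unadjusted p below 0.05, and limma-voom called 1, 0 and 3. No chosen gene was called against its direction for either label. The 3 lists shared 32, 29 and 29 genes with the 60 members.

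After maturity and age were held, members of a set still leaned the same way from ant to ant. This is a description over 289 ants that share libraries and body size, in sets that were sorted by sign. The median rho over pairs was 0.32 within the maturity-up genes and 0.21 within the maturity-down genes, and -0.18 between the sets. Over all pairs of genes the median was 0.02 and the median size 0.22. Regardless of sign, the median size was 0.32 in the maturity-up pairs, 0.22 in the maturity-down pairs and 0.19 across the sets. Only the maturity-up pairs thus stood above all pairs in size, and the others differed from all pairs mainly in sign. A rho above 0.3 was held by 53.8% of the maturity-up pairs, 34.0% of the maturity-down pairs and 18.6% of all pairs. A rho below -0.3 was held by 24.7% of the pairs across the sets and 16.2% of all pairs. Grouped by these values, 16 of the 21 maturity-up genes fell into a single group, and the maturity-down genes fell mainly into groups of 14, 13 and 7, so the maturity-down genes did not vary as a single block. The pair evm.model.ctg11.271 and evm.model.ctg144.7 had the highest rho, at 0.77, and the neighbours evm.model.ctg12.76 and evm.model.ctg12.77 had one of 0.56.

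Library size was set beside the members as a technical measure. With maturity and age in the model, 39 members were called for log2 library total (74.5% of all genes), 13 maturity-up and 26 maturity-down genes. With library size held in the partial rhos, 46 of the 60 members were again chosen.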

How the data were processed

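Brain RNA of single ants was extracted with Tri reagent and made into libraries with a stranded KAPA mRNA kit, per the labels' protocols. The values the authors deposited are raw read counts, 1 per gene model and ant, as whole numbers; STAR and featureCounts are named in the submitters' processing notes, while versions, genome build, annotation and strand setting are not given in the sources used here. Reads of near-identical copies and of overlapping gene models on opposite strands can therefore not be assigned with certainty. In 675 of 14664 gene models every ant was at 0. No annotation was used, so the gene lists drawn up by name could not be matched.

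Members and lists were chosen with earlier results of these data known. Named genes are the 2 leading members of each direction and, per test, the called member with the smallest adjusted p in each direction; others were named after their values were seen. Tests used edgeR 4.0.16 (quasi-likelihood F-test, TMM, robust, filterByExpr with a minimum count of 10, 10457 genes), with colony, oriented maturity and age as covariates over 289 ants and Benjamini-Hochberg adjustment over all genes; an adjusted p below 0.05 was called. Tallies entered as log2(tally + 1). Alternatives included DESeq2 1.42.0, its size factors, limma-voom 3.58.1, no filter, leaving out a colony, blocks of ants, head width, and body length added; those of body length, single colonies, squared terms, young high-end ants and both colony slopes were chosen after seeing the data. Every library held at least 19.8 M counts and each member at least 76 in every ant; counting error was not separated from the spread between ants.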

Additional observations from a re-analysis of the deposited data

Results flagged for a closer look

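The slope on maturity differed between colonies in 19 members when the slope on age was common to the colonies (16.1% of all genes, edgeR), and the slope on age differed in 13 when the slope on maturity was common (8.12%). When both slopes could differ at once, an alternative chosen after seeing the data, 5 and 0 members were called, with 6 members at an unadjusted p below 0.05 for age.

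For evm.model.ctg59.134 the adjusted p of a difference between colonies was 4.67e-06 for the slope on maturity and 0.0233 for the slope on age. Fitted alone, its slope on maturity was 0.02 ± 0.04 (SE) log2 in colony 2, 0.06 ± 0.05 in colony 3 and 0.30 ± 0.04 in colony 4, and its slopes on age were -0.05 ± 0.02, -0.07 ± 0.02 and -0.07 ± 0.02 per 12 months. With both slopes free the adjusted p was 0.00403 for maturity and 0.863 for age.

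For evm.model.ctg35.32 the adjusted p was 0.00285 for maturity and 0.0331 for age, with slopes on maturity of -0.14 ± 0.05, -0.26 ± 0.04 and -0.27 ± 0.03 in colonies 2, 3 and 4. With both slopes free they were 0.266 and 0.910.

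For evm.model.ctg12.294 the adjusted p for maturity was 0.0059, with slopes of -0.28 ± 0.09, -0.14 ± 0.12 and -0.58 ± 0.11, and 0.152 with both slopes free.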

How the results depend on the processing

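Between 58 and 60 members had the chosen opposite slopes in each alternative, and no slope of the 4 leading genes changed sign in a joint refit; in colony 3 alone the age slope of evm.model.ctg43.48 was 0.01 ± 0.02 (-0.01 ± 0.01 over all ants). Slopes of genes named for a single test were not compared across alternatives. Among 148 alternative counts of members, 30 lay beyond 1.5 times the reported count; the cause was not tested. The rule kept 5 members with maturity as deposited, 32, 29 and 29 without colony 2, 3 or 4, 39 without ants under 3 months and 36 with body length held.

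Body length gave 24 calls in colony 3 alone. The nurse-forage ratio gave 1 call without colony 2 and 3 without colony 3. Brood care gave 2, 14 and 0 without colony 2, 3 or 4, 1 with runs of 10 ants as blocks and 0 with squared terms. Queen attending gave 0 without colony 4 and 17 with body length. Nest cleaning gave 31, 6 and 0 without colony 2, 3 or 4, 5 with runs as blocks and 11 with squared terms. Trophallaxis gave 1, 0 and 5 without colony 2, 3 or 4 and 1 with squared terms. At counts of 0, edgeR had 4 members for brood care without colony 4 and 8 with squared terms, 11 for queen attending and for nest cleaning, and 5 for trophallaxis at an unadjusted p below 0.05. The product gave 10 without colony 2 and 8 without colony 4. Slopes that differ between colonies gave 5 for maturity and 0 for age with both free, and 3 for age on a log2 scale. The slope of evm.model.ctg59.134 on maturity was 0.04 ± 0.03 without colony 4 (adjusted p = 0.581) and 0.20 ± 0.03 without colony 2.

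Ant numbers recur between colonies, and the labels give no link between ants of the same number. Over 195 same-numbered pairs of ants of different colonies, deviations correlated with a median of 0.04 (0.02 for other numbers). A correlation above 0.1 was found in 43.1% of these pairs and in 38.7% of pairs with other numbers. The ants were not treated as paired, and the difference was not tested. With the replicate block, fitted by limma-voom, 31, 38 and 43 members were called between colonies 2 and 3, 2 and 4, and 3 and 4, beside 32, 43 and 43 by limma-voom without it and 32, 43 and 41 by edgeR; the edgeR fit with this block was not run to its end.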
